A study of Mus musculus with 28 samples.

Results

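The transcriptional answer of cultured mouse forebrain cells to 4 h of tetrodotoxin (TTX) was examined in cultures that carried a control shRNA. TTX blocks voltage-gated sodium channels and thereby stops action potentials, so a culture with TTX is a silenced network. Cells from the forebrain (cortex and hippocampus) of CD1 embryos at embryonic day 18 were grown as a mixture of neurons, astrocytes and oligodendrocyte precursor cells, received a lentivirus with the control shRNA on day in vitro 14, and were harvested on day 17. Each biological replicate came from the pooled tissue of several embryos with a matched ratio of sexes. The 3 libraries of the TTX group (1 µM) were set against the 2 libraries of the vehicle group (water), and both groups carried the same lentivirus, so no culture without a virus enters the comparison. Bromouridine (2 mM) was present for the last 20 min, and RNA that had taken it up was pulled down and sequenced (Bru-seq), which measures RNA made within the label and not the stock of mature mRNA. The genes described number 12333 of the 22919 in the authors' deposited table of this comparison, namely those whose normalized count averaged 50 or more. The whole series holds 16 Bru-seq libraries, including groups with an shRNA against Rai1 and groups treated with bicuculline, and 12 ChIP-seq samples that were not analysed here.

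Neurons couple firing to transcription through calcium. Calcium that enters through synaptic receptors and voltage-gated channels switches on kinases, phosphatases and transcription factors such as CREB, SRF and MEF2, which induce a first wave of immediate-early genes (Fos, Npas4, Egr and Nr4a family members) and then effector genes that act at synapses or are secreted. A culture that fires spontaneously keeps this program running, and silencing it withdraws the drive.

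Values were deposited as summaries only. The deposited comparison table gives 1 log2 change per gene with its standard error (SE), and the deposited FPKM table (fragments scaled to gene length and to the mapped total) gives 1 pooled level per condition with an upper and a lower bound. The spread between single libraries and the depth of each library are therefore unknown here, and errors below are the deposited SEs of a comparison of 3 with 2 libraries. The mean normalized counts are identical in the 3 comparison tables used, so they average over more libraries than these 5, and whether the SEs also draw on other groups is not given in the sources used here. For 110 of 177 genes tracked by name, the ratio of pooled FPKM lay nearer 0 than the deposited change by more than 1 SE. Where the change and the FPKM ratio of a called gene differ by more than 1.5 times, both levels are given beside the change. In 24 members, among them Hmgcs1 and Kcnh8, a pooled level lies outside its own deposited bounds, and no level is given for these. A gene is called when its deposited adjusted p, from DESeq2's Wald test with Benjamini-Hochberg adjustment, is under 0.05. Among members the deposited SE had a median of 0.121 on the log2 scale and ran from 0.0581 to 0.418. Of 3942 called members with a pooled FPKM, 3610 (91.6%) moved the same way in the FPKM table as in the comparison table, and among those with a log2 change of at least 1 in size these were 365 of 371.

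TTX changed the nascent transcription of 3953 members, 32.1% of those tested, with 1706 higher (13.8%) and 2247 lower (18.2%). The deposited log2 changes of all members had a median of -0.0092, and the middle 50% of them lay between -0.21 and 0.19. Small changes made up most of the calls, since called members that rose had a median change of 0.46 (1.37-fold) and called members that fell a median of -0.49 (1.40-fold). Large changes leaned toward falls. A log2 change of at least 1, which is 2-fold, was called in 273 members that fell (2.21%) and in 98 that rose (0.795%). At a size of at least 2 these were 49 falls and 1 rise, and at a size of at least 3 they were 6 falls and 0 rises. Rai1, the target of the knockdown in the other arm of the series, had a log2 change of 0.08 ± 0.07 (SE, adjusted p = 0.48) in the deposited table and a pooled level of 19.8 FPKM in vehicle and 23.9 FPKM in TTX.

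**Figure D1:**
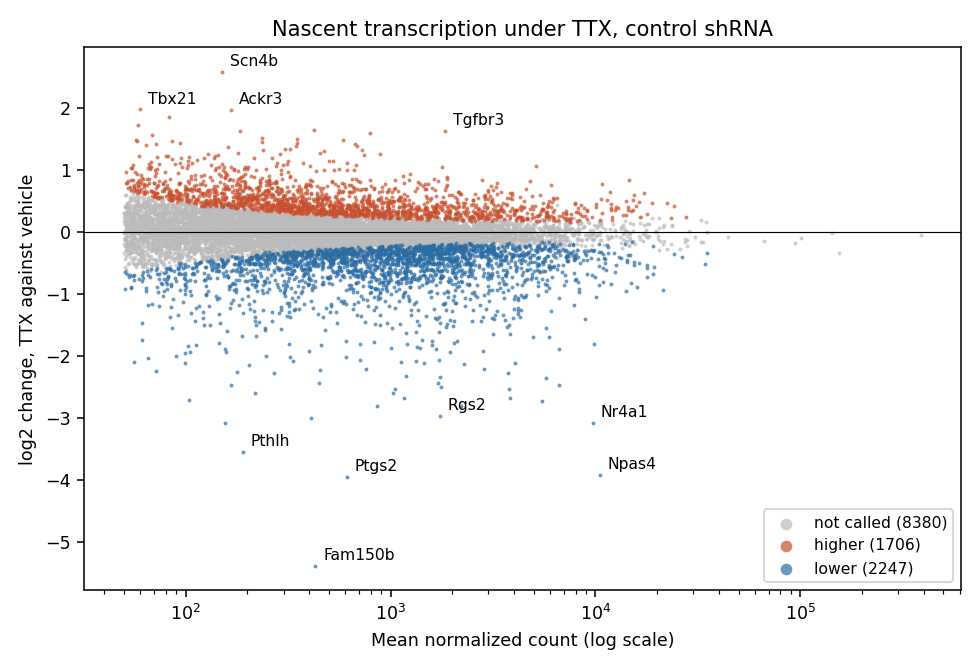
Deposited log2 change under TTX against vehicle (y axis) by mean normalized count (x axis, log scale) for the 12333 members, each point 1 gene, coloured by the deposited call. Falls reach -5.38 (Fam150b), while the largest rise is 2.58 (Scn4b).

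At the edge of the membership rule, the 3 genes just inside were Triqk, 2700070H01Rik and Neurl3, with mean normalized counts of 50.03, 50.04 and 50.06 and deposited log2 changes of 0.30, 0.18 and 0.0043. The 3 just outside were Il4ra, Gm6307 and Cpne9, at 49.99, 49.98 and 49.97, with log2 changes of 0.88, 0.07 and 0.09. Il4ra, a subunit of the interleukin-4 receptor, was called higher in the deposited table (SE 0.28, adjusted p = 0.0087, 0.532 to 0.697 FPKM) but is not counted.

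The gene that fell furthest was Fam150b, which encodes a secreted ligand of the ALK and LTK receptor kinases. Its pooled level went from 6.71 FPKM (deposited bounds 2.27 and 11.2) in vehicle to 0.469 FPKM (bounds 0 and 2.01) in TTX, and its deposited log2 change was -5.38 ± 0.26 (SE, 41.6-fold, adjusted p = 7.8e-92). Its interval in the FPKM table is shared with another gene. Ptgs2, the inducible cyclooxygenase COX-2, went from 14.2 FPKM (bounds 10.6 and 17.8) to 0.612 (bounds 0.144 and 1.08), with a deposited change of -3.95 ± 0.21 (adjusted p = 3.4e-75). Npas4, a neuronal transcription factor induced by calcium entry (chr19:4984355-4989971, mm9), was transcribed at a far higher level, 928 FPKM in vehicle (bounds 603 and 1254), and dropped to 50.0 FPKM in TTX (bounds 38.6 and 61.4). Its deposited log2 change was -3.92 ± 0.24 (15.1-fold, adjusted p = 6.6e-59). The bounds of vehicle and TTX do not overlap for any of these 3 genes.

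The other 9 of the 12 largest falls were Pthlh, Nr4a1, Nts, Adamts8, Rgs2, Penk, Rnd3, Fosb and Atp12a, with deposited log2 changes between -3.55 (Pthlh, parathyroid hormone-related peptide) and -2.71 (Atp12a, a subunit of a proton-potassium pump, 1.25 to 0.139 FPKM). Apart from Atp12a, they are described here by known function, a grouping that was not tested. Peptides and secreted proteins were Pthlh, the neurotensin precursor Nts (-3.08 ± 0.38, adjusted p = 1.9e-14), the opioid precursor Penk (-2.81 ± 0.14, 90.5 to 12.8 FPKM) and the metalloprotease Adamts8 (-3.00 ± 0.16, 10.3 to 2.36 FPKM). Transcription factors were the orphan nuclear receptor Nr4a1 (-3.08 ± 0.25, 697 to 67.3 FPKM) and the AP-1 subunit Fosb (-2.72 ± 0.29, 338 to 39.8 FPKM). Rgs2, a regulator of G-protein signalling (-2.97 ± 0.11, 134 to 15.6 FPKM), had the smallest deposited adjusted p of these (1.1e-164). Rnd3 is an atypical small GTPase (-2.80 ± 0.13, 41.2 to 6.90 FPKM). In the plot of pooled levels, all 12 falls have bounds in TTX that lie below those in vehicle.

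**Figure D2:**
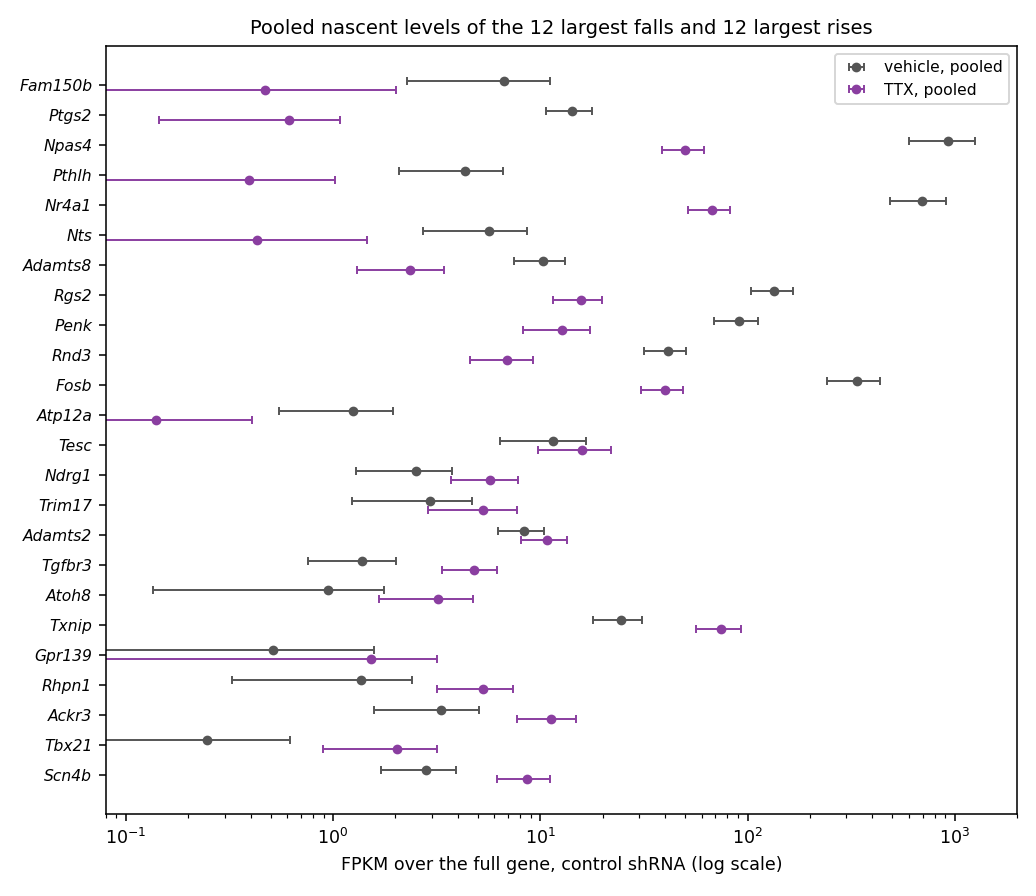
Pooled FPKM in vehicle (grey) and TTX (purple) with the deposited lower and upper bounds (x axis, log scale) for the 12 largest falls (top) and 12 largest rises (bottom), ordered by log2 change. Bars that run off the left edge have a lower bound near 0. Npas4 dropped from 928 to 50.0 FPKM, while Scn4b rose from 2.82 to 8.66 FPKM.

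The 12 largest rises were smaller than the 12 largest falls. Scn4b, the beta-4 auxiliary subunit of the sodium channels that TTX blocks, rose from 2.82 FPKM (bounds 1.71 and 3.92) to 8.66 (bounds 6.17 and 11.2), with a deposited log2 change of 2.58 ± 0.19 (5.98-fold, adjusted p = 1.9e-38). It lies at chr9:44947125-44962144 (mm9). Tbx21, a T-box transcription factor best known from T cells, rose by 1.98 ± 0.26 from 0.246 to 2.04 FPKM, and Ackr3, an atypical receptor that scavenges the chemokine CXCL12, rose by 1.98 ± 0.17 from 3.33 to 11.3 FPKM. Rhpn1 (1.86), Gpr139 (1.72, 0.513 to 1.52 FPKM), Txnip (1.64), Atoh8 (1.63), Tgfbr3 (1.63), Adamts2 (1.6, 8.30 to 10.7 FPKM), Trim17 (1.57, 2.94 to 5.27 FPKM), Ndrg1 (1.52) and Tesc (1.5, 11.5 to 15.9 FPKM) followed, with deposited adjusted p between 1.0e-63 (Tgfbr3) and 8.3e-10 (Gpr139). Txnip, which binds thioredoxin and restrains glucose uptake, was the most strongly transcribed of the 12, at 24.4 FPKM in vehicle and 74.7 in TTX, and shares its interval with another gene. Tgfbr3, a TGF-beta co-receptor, went from 1.38 to 4.77 FPKM. For Adamts2, Gpr139, Trim17, Ndrg1, Atoh8 and Tesc the pooled bounds of vehicle and TTX overlap, although the deposited test called all 6.

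Cyclic AMP response elements (CREs, bound by CREB) and CArG boxes (bound by SRF) are the classical promoter elements of activity-regulated genes, so the promoters of the falls were searched for them. A promoter here is the window from 250 bases before to 50 after a RefSeq start in GRCm38.p6, and 9816 of 12333 members matched one by symbol (79.6%), 218 of them among the 273 that fell by at least 1 (79.9%). Members without a matched promoter could not be searched, and shares were not tested between sets. The full CRE (TGACGTCA, the same on both strands) occurred in 588 of 32851 promoters of all genes (1.79%), and the CArG box, searched on both strands, in 535 (1.63%). Among the 218 matched members that fell by at least 1, a CRE was found for 14 (6.42%) and a CArG box for 9 (4.13%). Over all member genes with a promoter in the table, 3.74% held a CRE and 1.53% a CArG box, and no comparison is read from these counts. The 120 bases before the most upstream start are shown for the 4 largest falls with each element inside that stretch, 5′ to 3′, to show where the element sits; capitals mark the CRE, the CArG box and any TATA box (TATAAA on either strand). A match is a description and not evidence of binding.
Arl4d: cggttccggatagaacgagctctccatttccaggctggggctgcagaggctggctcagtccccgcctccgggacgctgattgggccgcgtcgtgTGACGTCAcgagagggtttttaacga
Pcsk1: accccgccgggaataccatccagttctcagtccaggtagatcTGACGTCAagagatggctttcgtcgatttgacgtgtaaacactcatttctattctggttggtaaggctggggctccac
Scg2: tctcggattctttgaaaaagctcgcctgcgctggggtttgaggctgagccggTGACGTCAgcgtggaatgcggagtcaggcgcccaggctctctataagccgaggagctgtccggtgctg
Dio2: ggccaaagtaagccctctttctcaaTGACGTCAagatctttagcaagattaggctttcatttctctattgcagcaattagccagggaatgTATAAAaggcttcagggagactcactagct
Rnd3: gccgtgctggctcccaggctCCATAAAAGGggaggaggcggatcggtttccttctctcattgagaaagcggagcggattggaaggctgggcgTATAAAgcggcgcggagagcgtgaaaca
Dusp5: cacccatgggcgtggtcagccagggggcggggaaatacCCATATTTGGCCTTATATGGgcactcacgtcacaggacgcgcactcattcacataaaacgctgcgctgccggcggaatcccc
Myo1e: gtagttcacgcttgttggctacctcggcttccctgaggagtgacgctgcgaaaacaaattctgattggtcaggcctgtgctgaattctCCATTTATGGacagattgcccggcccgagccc
Srf: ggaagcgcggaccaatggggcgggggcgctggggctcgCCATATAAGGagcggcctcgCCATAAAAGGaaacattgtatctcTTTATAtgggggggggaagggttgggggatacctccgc

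These windows lie in GRCm38.p6 at chr11:101665421-101665540 (Arl4d, plus strand), chr13:75089737-75089856 (Pcsk1, plus), chr1:79440027-79440146 (Scg2, minus), chr12:90739039-90739158 (Dio2, minus), chr2:51149112-51149231 (Rnd3, minus), chr19:53529025-53529144 (Dusp5, plus), chr9:70207230-70207349 (Myo1e, plus) and chr17:46556163-46556282 (Srf, minus). The CRE begins 26 bases before the start in Arl4d, 78 in Pcsk1, 68 in Scg2 and 95 in Dio2. Dusp5 and Srf each hold a pair of CArG boxes, which abut in Dusp5, where they begin 82 and 72 bases before the start. Srf encodes the factor that binds CArG boxes, and its own pair begins 82 and 62 bases before its start. The deposited log2 changes of the CRE genes were -2.21 ± 0.21 for Arl4d (an ARF-like GTPase), -2.09 ± 0.14 for Pcsk1 (a protease that matures prohormones), -2.06 ± 0.15 for Scg2 (a secretory granule protein) and -1.56 ± 0.20 for Dio2 (the enzyme that activates thyroid hormone). Those of the CArG genes were -2.80 ± 0.13 for Rnd3, -1.82 ± 0.13 for Dusp5 (a phosphatase that inactivates ERK), -1.27 ± 0.11 for Myo1e (a class I myosin, with nearly equal pooled levels of 12.6 FPKM in vehicle and 12.3 in TTX) and -1.21 ± 0.11 for Srf. Apart from Rnd3, these genes were chosen for the display after their values were seen.

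Immediate-early transcription factors fell as a group. This list and those below were chosen with earlier results of these data known, so their counts are descriptions and not tests. Of 37 listed, 36 were members, and 29 of these were called lower (80.6%), 1 higher (2.78%) and 6 were not called. Over all members 18.2% were called lower and 13.8% higher. The list had a median deposited log2 change of -1.30 against -0.0092 over all members. By smallest adjusted p the group was led by Fosl2, an AP-1 subunit (-2.46 ± 0.10, 81.6 to 18.0 FPKM, adjusted p = 2.7e-133), the orphan nuclear receptor Nr4a3 (-2.27 ± 0.10, 53.4 to 12 FPKM), the zinc-finger factor Egr1 (-2.35 ± 0.13, 1009 to 201 FPKM), Npas4 and the bZIP repressor Nfil3 (-1.76 ± 0.12). Fos, named here for its familiarity after its value was seen, went from 569 FPKM (bounds 410 and 727) to 76.9 (bounds 59.4 and 94.5), a deposited log2 change of -2.68 ± 0.24. The members that were not called were Cebpd, Klf4, Cebpb, Bhlhe40, Ier3 and Csrnp3, with values from -0.56 to 0.03. Klf10, a Krüppel-like factor, was called in the other direction (0.39 ± 0.14, 16.8 to 20.2 FPKM, adjusted p = 0.026). The summed pooled level of the 37 genes was 5734 FPKM in vehicle and 1242 in TTX.

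**Figure D3:**
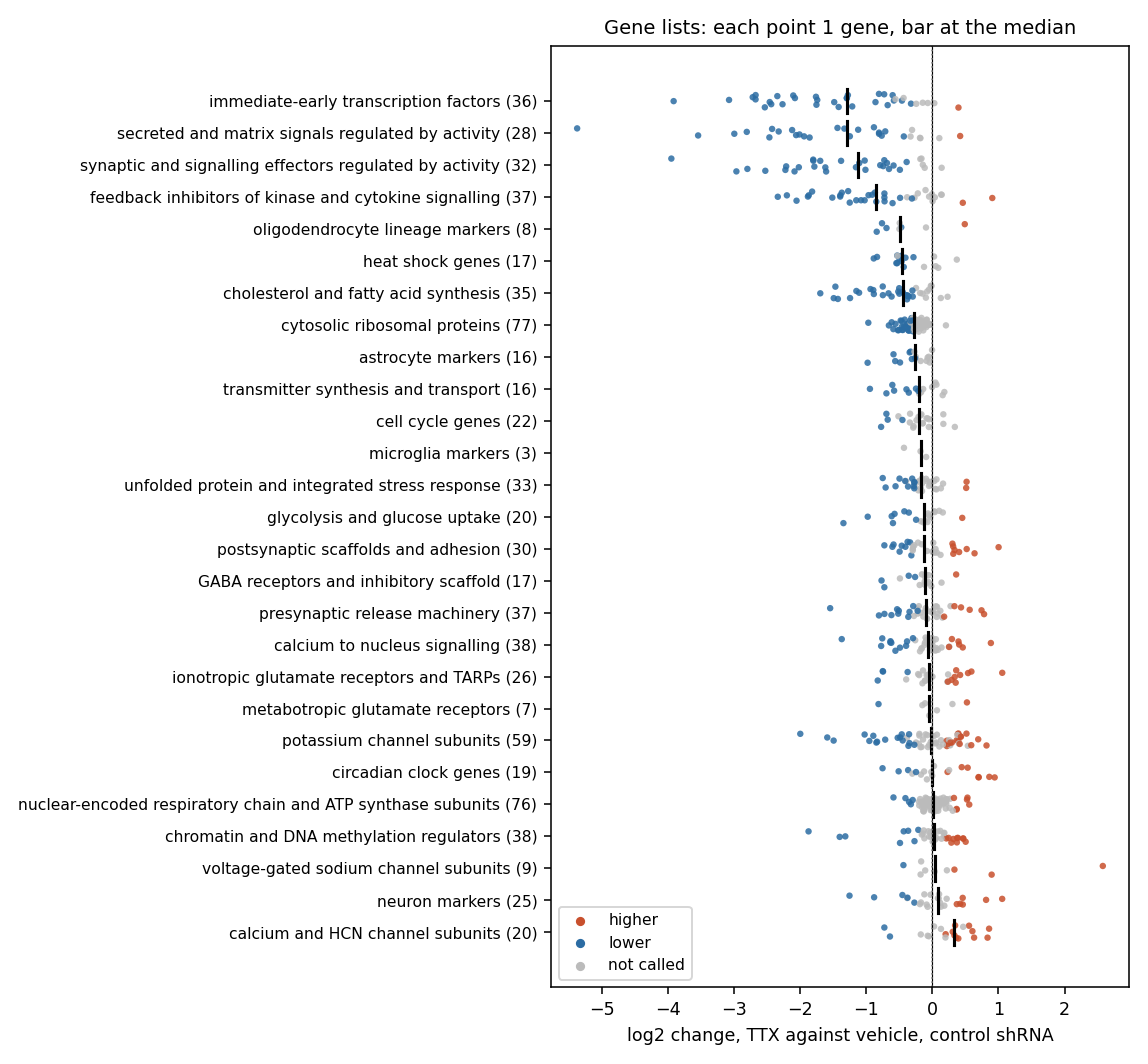
Deposited log2 change under TTX (x axis) of each member of the gene lists with at least 3 members (number of members in brackets), each point 1 gene coloured by its call, with a black bar at the list's median. Medians run from -1.30 for immediate-early transcription factors to 0.32 for calcium and HCN channel subunits, and most lists hold genes called in both directions.

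Secreted and matrix proteins listed as regulated by activity also fell. The list includes Fam150b, the largest fall of this comparison, and was chosen with earlier results of these data known. Of 28 members among 38 listed, 22 were called lower (78.6%, against 18.2% of all members). In the same list 1 was called higher (3.57%, against 13.8%) and 5 were not called, with a median deposited change of -1.29. Beside Fam150b, Penk and Adamts8, the smallest adjusted p belonged to Nptx2, a pentraxin that clusters AMPA receptors (-2.43 ± 0.13, 48.7 to 10.7 FPKM), and Vgf, a neuropeptide precursor (-1.86 ± 0.11, 129 to 43.8 FPKM). Bdnf, the neurotrophin, again named for its familiarity, went from 24.7 to 8.76 FPKM with a deposited change of -2.12 ± 0.14 (adjusted p = 2.7e-50). Nptx1, the close relative of Nptx2, was called in the opposite direction (0.42 ± 0.10, 31.5 to 44.8 FPKM, adjusted p = 0.00029). Among peptide precursors the falls were not uniform, since the deposited values were -2.47 for Adcyap1 (PACAP), -0.89 for Npy (41.4 to 32.4 FPKM) and -0.71 for Vip, all called, while Cck (-0.19), Sst (-0.18) and Pdyn (-0.33) were not called.

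Effectors at synapses and in signalling fell as well. Of 32 members among 34 listed genes, 27 were called lower (84.4%), 0 higher and 5 were not called, with a median deposited change of -1.13. Over all members 18.2% were called lower and 13.8% higher. Homer1, which yields a short activity-induced scaffold form, fell by 1.80 on the log2 scale (SE 0.07, 88.4 to 28.4 FPKM, adjusted p = 1.8e-136) over its 100635-base interval at chr13:94074450-94175084 (mm9). Rgs2, Rnd3 and Ptgs2 are described above. Rheb, a GTPase that activates mTORC1, had a deposited change of -1.70 ± 0.08 (adjusted p = 1.2e-88), but its pooled level moved only from 64.0 to 53.8 FPKM. Arc, which drives AMPA receptor endocytosis and was named for its familiarity, went from 413 FPKM (bounds 297 and 530) to 61.1 (bounds 47.4 and 74.7), a deposited change of -2.53 ± 0.23. The 5 members not called were Lrrtm2, Nedd9, Gadd45a, Rasgrp1 and Odc1, with values from -0.18 to 0.14.

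Inhibitors that limit kinase and cytokine signalling fell too. Of 37 members among 38 listed, 25 were called lower (67.6%, against 18.2% of all members), 2 higher (5.41%, against 13.8%) and 10 were not called. The median deposited change was -0.85, or -0.52 by the ratio of pooled FPKM. Dual-specificity phosphatases of MAP kinases led, with Dusp10 at -2.06 ± 0.10 (18.4 to 9.21 FPKM), Dusp4 at -2.34 ± 0.13 (47.8 to 11.6 FPKM) and Dusp6 at -1.89 ± 0.13 (184 to 53.6 FPKM), all with deposited adjusted p of at most 1.9e-45. Errfi1, a feedback inhibitor of the EGF receptor, fell by 1.87 (SE 0.11, 47.6 to 14.0 FPKM), and Spred2, an inhibitor of Ras-ERK signalling, fell by 0.97 (SE 0.07, 30.3 to 18.6 FPKM). Called against the group were Ier5l (0.91 ± 0.18) and Socs2, an inhibitor of JAK-STAT signalling (0.46 ± 0.17, 18 to 20 FPKM, adjusted p = 0.032). Rcan1, an inhibitor of calcineurin, was not called (-0.05), nor was Nfkbia (0.0021).

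The machinery that carries calcium signals to the nucleus did not move as a block. Of 38 members among 40 listed, 11 were called lower (28.9%), 6 higher (15.8%) and 21 were not called, with a median deposited change of -0.07. Over all members 18.2% were called lower and 13.8% higher. The falls were led by the calcium-stimulated adenylyl cyclases Adcy8 (-1.37 ± 0.12, 8.48 to 3.00 FPKM) and Adcy1 (-0.78 ± 0.09, 28.5 to 24.2 FPKM), followed by the SRF partner Elk4 (-0.76 ± 0.11) and the kinase Camkk2 (-0.64 ± 0.10, 16.4 to 13.2 FPKM). The rises included Rps6ka5, the kinase MSK1 that phosphorylates CREB and histone H3 (0.89 ± 0.09, 2.96 to 5.63 FPKM, adjusted p = 6.8e-22), and Camkk1 (0.46 ± 0.11). Creb1 itself had a deposited change of -0.04 and was not called, and neither were the coactivators Crebbp (-0.05) and Ep300 (0.01).

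Ion channel genes moved in both directions. Among 9 sodium channel subunits with enough counts of 14 listed, 3 were called higher (33.3%) and 1 lower (11.1%). Over all members these shares were 13.8% and 18.2%. The rises included Scn4b and Scn2b (0.33 ± 0.11, 35.6 to 37.7 FPKM, adjusted p = 0.010), and the fall was Scn1a (-0.44 ± 0.13, 5.12 to 4.33 FPKM, adjusted p = 0.0042). The main neuronal alpha subunits Scn2a1 (-0.11) and Scn8a (0.03) were not called. Calcium and HCN channel subunits held the highest list median in the comparison table, 0.32, with 11 of 20 members called higher, 2 lower and 7 not called. The median was 0.21 by the ratio of pooled FPKM, where the clock genes stood higher (0.23), and in the Rai1 shRNA arm it was -0.0022, with 7 called higher and 5 lower. The rises were led by the T-type channels Cacna1h (0.86 ± 0.10, 5.60 to 9.73 FPKM, adjusted p = 1.3e-16) and Cacna1g (0.83 ± 0.13) and by the L-type channel Cacna1c (0.63 ± 0.09, 12.1 to 19.5 FPKM). The falls included Cacna2d1, an auxiliary calcium channel subunit (-0.64 ± 0.11, 10.5 to 8.41 FPKM).

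Potassium channel subunits were nearly balanced in the control arm, with 16 of 59 members called higher (27.1%), 17 lower (28.8%) and 26 not called. Their median deposited change was -0.02. Over all members 13.8% were called higher and 18.2% lower. In the Rai1 shRNA arm 7 potassium channel subunits were called higher and 24 lower, with a median of -0.19. The largest falls were in the electrically silent subunits Kcnv1 (-2.0 ± 0.22, 9.05 to 2.25 FPKM) and Kcns2 (-1.59 ± 0.17, 12.3 to 4.08 FPKM) and in Kcnh8 (-1.50 ± 0.20). Kcns3 (-0.90 ± 0.12) and the calcium-activated channel Kcnn2 (-0.96 ± 0.11, 22.6 to 12.9 FPKM) fell as well. Against these, Kcnh4 (0.82 ± 0.22) and the sodium-activated channel Kcnt1 (0.69 ± 0.10, 6.17 to 8.45 FPKM) were called higher.

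Receptor genes were called in both directions, and over all members 13.8% were called higher and 18.2% lower. Of 26 ionotropic glutamate receptor and TARP genes, 9 were called higher (34.6%), 4 lower (15.4%) and 13 were not called, with a median deposited change of -0.06. In the Rai1 shRNA arm 4 were called higher and 8 lower. The kainate receptor subunit Grik4 rose most (1.06 ± 0.09, 4.41 to 6.77 FPKM, adjusted p = 1.5e-29), whereas Grik1, of the same receptor family, fell (-0.75 ± 0.20, adjusted p = 0.0014). Auxiliary AMPA receptor subunits were split too, with Cnih2 (0.54 ± 0.10, 60.3 to 69.0 FPKM) and Cacng3 (0.59 ± 0.13, 16.1 to 19.2 FPKM) called higher and Cacng5 lower (-0.75 ± 0.11, 9.56 to 7.35 FPKM), while the NMDA receptor subunit Grin3a fell by 0.83 (SE 0.14, 5.56 to 4.34 FPKM). Among 7 metabotropic glutamate receptors, 1 was called lower and 1 higher (14.3% each), close to the shares over all members. Grm7 was the fall (-0.82 ± 0.13, 13.5 to 8.22 FPKM) and Grm4 the rise (0.52 ± 0.12). Among 17 genes of GABA receptors and their scaffold, 4 were called lower (23.5%) and 1 higher (5.88%), and no shift of the set is read from these counts. The falls included Gabra5 (-0.77 ± 0.13, 9.14 to 6.77 FPKM), Gabra4 (-0.36 ± 0.13) and Gabrg3 (-0.26 ± 0.09), and the rise was the GABA-B receptor subunit Gabbr2 (0.36 ± 0.08). Transmitter synthesis and transport leaned to falls, with 8 of 16 members called lower and 0 higher. Both enzymes that make GABA were among them, Gad1 at -0.95 ± 0.09 (97.0 to 71.6 FPKM, adjusted p = 3.4e-24) and Gad2 at -0.70 ± 0.09 (46.8 to 38 FPKM), as were the glutamine transporters Slc38a2 (-0.61 ± 0.10) and Slc38a1 (-0.39 ± 0.07) and the chloride importer Slc12a2 (-0.58 ± 0.11).

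Genes of the release machinery and of postsynaptic scaffolds were mixed. Of 37 presynaptic members, 11 were called lower (29.7%) and 6 higher (16.2%), with a median deposited change of -0.10. Over all members 18.2% were called lower and 13.8% higher. Syt9, a synaptotagmin, fell most (-1.55 ± 0.11, 2.86 to 1.31 FPKM), and the active zone genes Rims1 (-0.81 ± 0.11, 10.4 to 8.29 FPKM), Unc13a (-0.73 ± 0.08, 19.7 to 15.9 FPKM) and Unc13b (-0.52 ± 0.09) fell with it, while Syt2 (0.78 ± 0.17, 4.98 to 6.28 FPKM) and Syn3 (0.74 ± 0.10, 10.6 to 13.5 FPKM) rose. Of 30 postsynaptic members, 9 were called lower (30%) and 8 higher (26.7%), with a median of -0.12. In the Rai1 shRNA arm 12 of the postsynaptic members were called lower and 4 higher. Ppp1r1b (DARPP-32, a phosphatase inhibitor under dopamine control) reached 1.00 ± 0.14 with overlapping pooled bounds (26.5 to 34.6 FPKM, shared interval), and the scaffolds Iqsec1 and Shank2 reached 0.64 ± 0.08 and 0.52 ± 0.08, whereas Cntnap4 (-0.73 ± 0.13, 4.39 to 3.41 FPKM) and Sorcs1 (-0.59 ± 0.13, 5.37 to 4.82 FPKM) were called lower.

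The labelled cell mixture was checked against lineage markers. Neuronal and astrocytic genes were well transcribed in both groups, as were progenitor genes of the oligodendrocyte lineage, with pooled levels in vehicle of 31.8 FPKM for Map2, 24.5 for Rbfox3, 81.7 for Gfap, 191 for Glul, 70.9 for Olig1 and 5.65 for Pdgfra. Microglial and vascular genes mostly stayed under the membership rule, with 3 of 14 and 1 of 14 as members. Summed over each list, the levels in vehicle and TTX were 987 and 906 FPKM for 25 neuron markers, 831 and 664 for 20 astrocyte markers, 226 and 201 for 18 oligodendrocyte lineage markers, 51.8 and 43.2 for 14 microglia markers and 9.29 and 11.6 for 14 vascular and fibroblast markers. Only Opalin, a gene of mature oligodendrocytes, was listed at 0 in both. In a bulk culture, fewer cells of a type and less RNA per cell cannot be told apart.

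Glial markers leaned lower under TTX in these libraries. Of 16 astrocyte members, 8 were called lower and 0 higher (median -0.27), led by the transporter Slco1c1 (-0.98 ± 0.12, 10.7 to 6.53 FPKM), the filament genes Gfap (-0.56 ± 0.11) and Vim (-0.59 ± 0.13) and the lipid enzyme Acsbg1 (-0.49 ± 0.10), while Aldh1l1 was not called (-0.04 ± 0.09). Of 8 oligodendrocyte lineage members, 4 were called lower, the progenitor genes Olig2 (-0.84 ± 0.15), Pdgfra (-0.76 ± 0.13, 5.65 to 4.70 FPKM), Cspg4 (-0.70 ± 0.15, 3.12 to 2.36 FPKM) and Olig1 (-0.47 ± 0.13), and 1 was called higher, Mbp (0.49 ± 0.09, 18.5 to 22.6 FPKM). In the Rai1 shRNA arm the deposited medians of these lists under TTX were 0.09 and 0.38. Neuron markers had a median of 0.08 in the comparison table and of -0.047 by the ratio of pooled FPKM. Of 25, 6 were called higher (24%, against 13.8% of all members) and 5 lower (20%, against 18.2%). The bHLH factors Neurod1 (1.06 ± 0.18, 8.95 to 18.0 FPKM) and Neurod2 (0.81 ± 0.13) and the splicing factor Rbfox3 (0.42 ± 0.07) rose, and Calb1 (-1.26 ± 0.17, 10.7 to 6.10 FPKM) and Reln (-0.88 ± 0.10, 18.2 to 13.8 FPKM), genes of particular neuron subtypes, fell. No microglial or vascular member was called by DESeq2 at an adjusted p under 0.05, the values including Cd68 -0.43 ± 0.19, Cx3cr1 -0.09 ± 0.23 and Pdgfrb 0.04 ± 0.18. The part of these marker shifts in the other gene lists was not tested.

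Sterol and fatty acid synthesis fell broadly. Of 35 members among 37 listed, 25 were called lower (71.4%), 0 higher and 10 were not called, with a median deposited change of -0.45. Over all members 18.2% were called lower and 13.8% higher. Enzymes of the mevalonate pathway were among the falls, with Hmgcs1 at -1.49 ± 0.10 and Idi1 at -1.47 ± 0.14 (36.0 to 16.2 FPKM). The later sterol enzymes Cyp51 (-1.43 ± 0.08, 41.7 to 22.8 FPKM) and Msmo1 (-1.15 ± 0.09, 73.8 to 35.5 FPKM) fell as well. Astrocytes make much of the brain's cholesterol, and the astrocyte markers stood lower in the same libraries, with summed levels of 831 and 664 FPKM. Their part in the sterol values was not tested. In the Rai1 shRNA arm 23 of the 35 sterol and fatty acid genes were called lower and 0 higher, with a median of -0.49.

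Chaperone and ribosomal protein genes leaned to falls. Of 17 heat shock members, 11 were called lower (64.7%) and 0 higher (median -0.47, or -0.30 by the ratio of pooled FPKM). These falls were led by Hspa4 (-0.89 ± 0.08, 30.2 to 23.1 FPKM), Hspa8, the constitutive HSC70 (-0.55 ± 0.11, 348 to 253 FPKM), Dnajb1 (-0.84 ± 0.17), Dnaja1 (-0.53 ± 0.08, 27.3 to 22.2 FPKM) and Hsph1 (-0.47 ± 0.09). In the unfolded protein and integrated stress response list, 11 of 33 were called lower (33.3%) and 2 higher (6.06%). Hsp90b1 (-0.75 ± 0.10, 31.5 to 23.1 FPKM), Atf4 (-0.71 ± 0.11, 223 to 138 FPKM), Hspa5 (-0.56 ± 0.10) and the amino acid transporter Slc7a5 (-0.50 ± 0.10, 52.7 to 47.7 FPKM) were lower. Vldlr (0.52 ± 0.11) and Ddit4, an inhibitor of mTORC1 (0.51 ± 0.10, 125 to 180 FPKM), were higher. Of 77 cytosolic ribosomal protein members, 38 were called lower (49.4%), 0 higher and 39 were not called, with a median of -0.28 and 76 of 77 values below 0. Those with the smallest adjusted p were Rpl10 (-0.66 ± 0.11, 111 to 90.8 FPKM), Rpl12 (-0.62 ± 0.12), Rpl41 (-0.56 ± 0.11), Rps3 (-0.46 ± 0.10) and the paralog Rpl22l1, the lowest of the list (-0.97 ± 0.14). Ribosomal protein genes have many near-identical pseudogenes, and reads shared with them make single values uncertain.

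Glucose uptake and glycolysis leaned to falls. Of 20 members, 8 were called lower and 1 higher (median -0.12). The glucose transporters Slc2a1 (-1.35 ± 0.13, 21.6 to 12.3 FPKM) and Slc2a3 (-0.60 ± 0.11, 58.6 to 40.0 FPKM) and the regulatory kinase Pfkfb3 (-0.98 ± 0.10, 27.2 to 23.3 FPKM) fell, as did Ldha (-0.57 ± 0.10, 85 to 67.2 FPKM) and Pgk1 (-0.43 ± 0.08, 56.1 to 52.7 FPKM), while Pfkl rose (0.45 ± 0.12, 11.8 to 13.5 FPKM). Of 76 respiratory chain and ATP synthase members, 6 were called higher (7.89%, against 13.8% of all members), 5 lower (6.58%, against 18.2%) and 65 not called. Their median was 0.01 in the comparison table and -0.10 by the ratio of pooled FPKM. In the Rai1 shRNA arm 2 of these were called higher and 14 lower. The extremes were Atp5d (-0.59 ± 0.12) and Ndufv3 (0.56 ± 0.11, 59.1 to 61.2 FPKM). Ndufb6 (-0.41 ± 0.14, 44.3 to 37.9 FPKM) and Uqcrh (-0.35 ± 0.11) were called lower.

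Clock genes moved in both directions. Of 19 members, 7 were called higher (36.8%), 4 lower (21.1%) and 8 were not called, with a median of -0.0038, or 0.23 by the ratio of pooled FPKM. Over all members 13.8% were called higher and 18.2% lower. In the Rai1 shRNA arm 6 clock genes were called higher and 8 lower. The PAR bZIP outputs Dbp (0.94 ± 0.16, 11.6 to 20.8 FPKM), Tef (0.86 ± 0.10, 32.1 to 47.8 FPKM) and Hlf (0.70 ± 0.10) rose with the nuclear receptor Rora (0.53 ± 0.10), and Per3 (0.44, 8.13 to 8.71 FPKM) and Nr1d1 (0.70) were called higher as well. The repressors Per2 (-0.76 ± 0.11, 11.9 to 7.36 FPKM) and Cry1 (-0.51 ± 0.10) fell. Among 38 chromatin and DNA methylation regulators, 10 were called higher (26.3%, against 13.8% of all members) and 8 lower (21.1%, near the 18.2% of all members). The DNA-binding protein Arid5a (-1.88 ± 0.13, 9.40 to 6.03 FPKM) and the class IIa histone deacetylases Hdac9 (-1.40 ± 0.20, 15.6 to 5.67 FPKM) and Hdac5 (-1.32 ± 0.10, 30.9 to 16.3 FPKM) fell most in the comparison table, whereas by pooled FPKM Hdac9 led and Arid5a moved least of the 3. The DNA demethylase Tet2 was called lower (-0.49 ± 0.07) with pooled levels of 10.8 and 10.4 FPKM, and the remodeller ATPase Smarca2 rose by 0.47 (SE 0.08). Of 22 cell cycle members, 4 were called lower (18.2%, the share of all members called lower) and 0 higher, with a median of -0.20 in the comparison table and 0.012 by the ratio of pooled FPKM. The 4 were Pcna (-0.78 ± 0.19), Ccnb1 (-0.70 ± 0.26, 1.95 to 1.39 FPKM, adjusted p = 0.030), Kif23 (-0.68 ± 0.22, 1.68 to 1.21 FPKM) and Ccnd1 (-0.45 ± 0.11, 22 to 17.8 FPKM).

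The calls were spread unevenly over expression and length. Among 3408 members with a mean normalized count of 50 to 200, 12.2% were called higher and 6.95% lower. Among 5163 members at 200 to 1000 the shares were 14.9% and 16.9%, and among 3762 at 1000 and over they were 13.8% and 30.3%. The share of falls thus grew with level while the share of rises stayed between 12.2% and 14.9%, and the median deposited SE shrank from 0.195 to 0.0882 over the same classes. The median change moved with it, from 0.07 to 0.0029 and -0.08. Over the 9855 members with an interval of their own, 15.8% of genes under 10 kb were called lower and 25.2% of genes of 200 kb and over, while 9.57% and 14.7% were called higher.

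**Figure D4:**
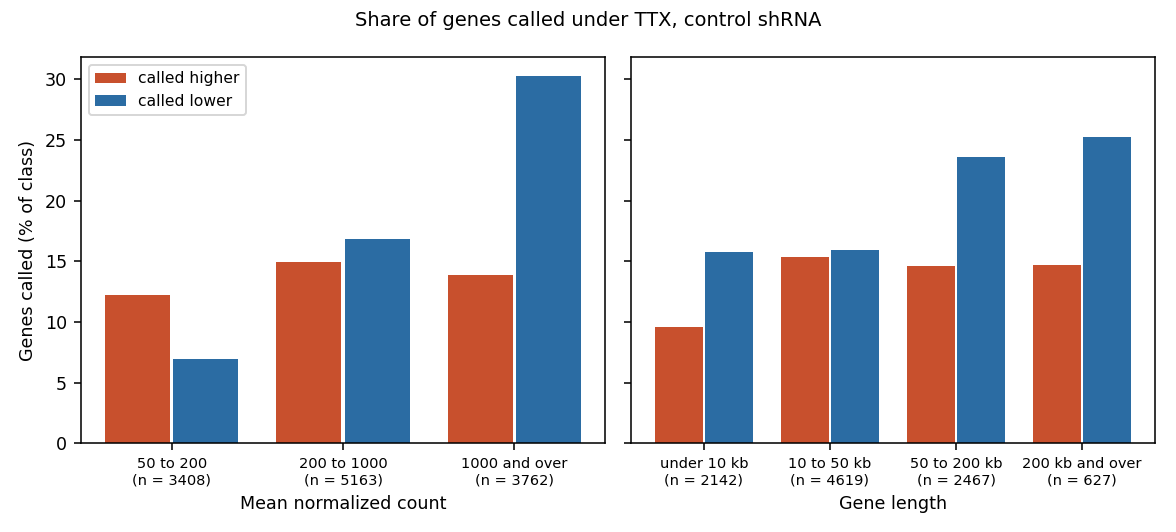
Share of members called higher (red) and lower (blue) under TTX, in percent of each class, by mean normalized count (left, all members) and by gene length (right, members with an interval of their own). The share called lower climbs from 6.95% to 30.3% with level and from 15.8% to 25.2% with length.

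Length and level are linked, and within the highest level class the order by length turned round. Among members with an interval of their own and a mean normalized count of at least 1000, 61.1% of the 95 genes under 10 kb were called lower and 2.11% higher, with a median deposited change of -0.35. In the same level class 35.6% of 921 genes of 10 to 50 kb, 27.5% of 1456 genes of 50 to 200 kb and 27.3% of 483 genes of 200 kb and over were called lower.

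The response to TTX was compared with that of the Rai1 shRNA arm, 3 TTX and 3 vehicle libraries that share no library with the control arm. In that arm 36.2% of the members were called. Called in both arms and in the same direction were 2730 members, 69.1% of the calls in the control arm and 61.1% of those in the Rai1 shRNA arm, and 27 were called in opposite directions. Of the 273 members that fell by at least 1 in the control arm, 267 (97.8%) were called lower in the Rai1 shRNA arm as well, and of the 98 that rose by at least 1, 95 were called higher. All 49 that fell by at least 2 were called lower again, with median deposited changes of -2.34 in the control arm and -2.11 in the Rai1 shRNA arm. These sets were chosen by their control-arm values, which by itself tends to make that arm the more extreme. Fam150b (-5.38 ± 0.26 and -5.35 ± 0.25) and Scn4b (2.58 ± 0.19 and 2.87 ± 0.18) had close values in the 2 arms.

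**Figure D5:**
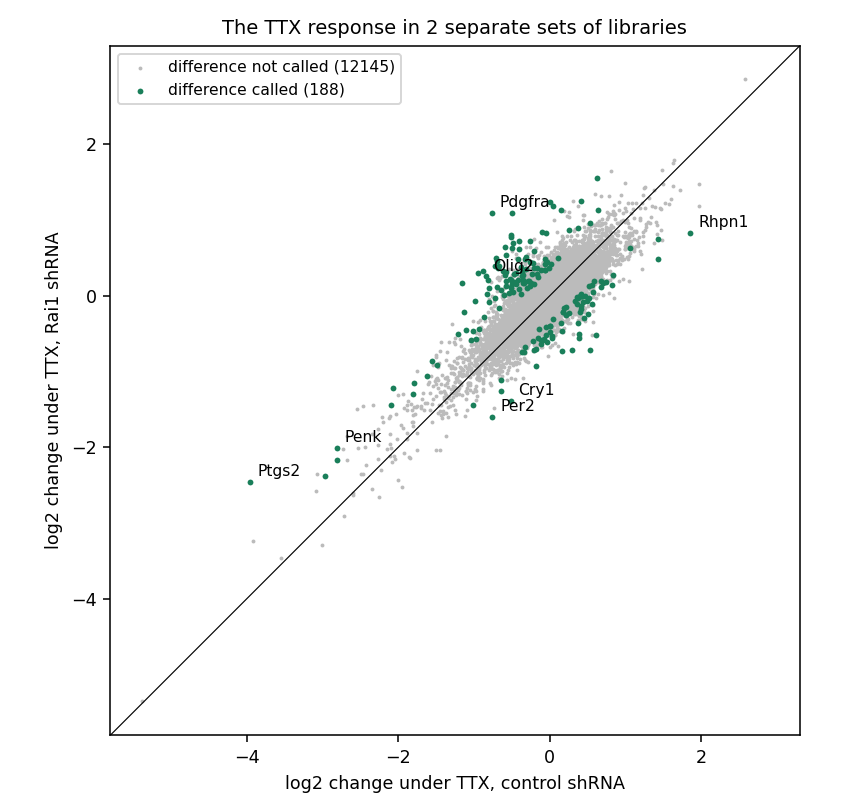
Deposited log2 change under TTX in the control shRNA arm (x axis) and in the Rai1 shRNA arm (y axis) for the 12333 members, each point 1 gene, with the line of equal change. Green points are the 188 members whose difference between arms was called, among them Pdgfra, Ptgs2, Per2 and Cry1.

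The difference between the arms was itself tested for each member, as the deposited change in the Rai1 shRNA arm minus that in the control arm with the SEs combined, and was called in 188 of 12333 (1.52%), 113 above 0 and 75 below. Among synaptic and signalling effectors 9 of 32 members differed, all above 0, and among clock genes 3 of 19, all below 0. Among oligodendrocyte lineage markers 5 of 8 members differed and among astrocyte markers 3 of 16, all above 0. Pdgfra stood at -0.76 ± 0.13 in the control arm and 1.10 ± 0.12 in the Rai1 shRNA arm (difference 1.86 ± 0.17, adjusted p = 1.8e-22), and Olig2, Cspg4, Olig1, Sox10, Slco1c1, Acsbg1 and Glul also differed. The difference was not called for Gfap (adjusted p = 0.46), Vim (adjusted p = 0.29) or Mbp, where it was -0.35 (adjusted p = 0.14). The clock repressors fell less in the control arm than in the Rai1 shRNA arm, with Cry1 at -0.51 and -1.38 (difference -0.87 ± 0.14, adjusted p = 6.6e-07) and Per2 at -0.76 and -1.59 (difference -0.84 ± 0.14, adjusted p = 7.0e-06). Some activity-regulated genes fell further in the control arm, namely Ptgs2 (-3.95 and -2.46), Scg2 (-2.06 and -1.22), Penk (-2.81 and -2.0), Rnd3 (-2.80 and -2.16), Rgs2 (-2.97 and -2.38) and Homer1 (-1.80 and -1.30). They were named for large or strongly called falls in the control arm, or after their values were seen, so their sizes there may be overstated.

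Bicuculline, which blocks GABA-A receptors and raises network activity, was given to other control cultures for 4 h. That comparison uses the same 2 vehicle libraries, so its deposited log2 changes are given beside those of TTX above without a test. For the 6 largest falls under TTX they were 1.21 ± 0.14 for Fam150b, 2.28 ± 0.16 for Ptgs2, 0.54 ± 0.26 for Npas4, 1.20 ± 0.18 for Pthlh, -0.14 ± 0.27 for Nr4a1 and 1.40 ± 0.37 for Nts. For the next 6 they were 0.16 ± 0.15 for Adamts8, 0.47 ± 0.11 for Rgs2, 0.29 ± 0.14 for Penk, 0.67 ± 0.14 for Rnd3, 0.49 ± 0.31 for Fosb and 1.57 ± 0.23 for Atp12a. The values of this set were spread from near 0 to well above it. For the 6 largest rises under TTX they were -2.41 ± 0.31 for Scn4b, 0.60 ± 0.29 for Tbx21, -0.89 ± 0.22 for Ackr3, -0.03 ± 0.26 for Rhpn1, 0.06 ± 0.30 for Gpr139 and -0.70 ± 0.17 for Txnip, and for the next 6 -0.81 ± 0.22 for Atoh8, 0.30 ± 0.11 for Tgfbr3, -1.11 ± 0.17 for Adamts2, 0.15 ± 0.27 for Trim17, 0.80 ± 0.17 for Ndrg1 and -2.62 ± 0.20 for Tesc. This set held values on both sides of 0. Of genes picked after their values were seen, the activity-regulated Bdnf stood at -2.12 ± 0.14 under TTX and 1.41 ± 0.15 under bicuculline, while Egr1 stood at -2.35 ± 0.13 and -0.91 ± 0.15 and Srf at -1.21 ± 0.11 and -1.02 ± 0.12.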

How the data were processed

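Per the submitters' processing notes, TopHat2 2.1.0, Bowtie2 2.2.6 and DESeq2 were used with the mouse build mm9; which step used which, the gene annotation and the strand setting of the counting are not given in the sources used here. Of 8 deposited tables, 3 comparisons (TTX in each shRNA arm, bicuculline in the control arm) and the FPKM table were used. Each gene's average normalized count, a signal deposited by the authors with no statement of the libraries averaged, set membership. The Wald statistic is a score the authors computed, per the file headers. The log2 fold changes, their SEs, the p-values and the adjusted p-values were also deposited by the authors; the p-values were checked as two-sided normal values of the score, and the adjusted ones as Benjamini-Hochberg over 15464 genes. FPKM is 1 pooled value with bounds per condition, deposited by the authors; its columns named Scram untreated and Scram TTX were taken as the control shRNA groups, and 12 further value columns were not used. Deposited starts count from 0 and are printed 1-based. A shared interval spans more than 1 gene, which held for 2456 members and 29 of the 177 genes tracked by name, so their FPKM and length are uncertain.

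No values per library could be used, so the deposited Wald test was the main result. Computed here with Python 3 (numpy, pandas, scipy) were medians and counts for 28 gene lists, classes, motif matches, and the difference between arms (two-sided Wald test, SEs combined as the root of summed squares, Benjamini-Hochberg over 12333 members), which was tested on simulated data. FPKM ratios used log2(FPKM + 0.5). Replicate numbers come from the labels; which libraries the deposited SEs and p-values draw on is not given in the sources used here.

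Genes named were the 12 largest falls and rises among called members whose FPKM moved the same way; in each list up to 5 called members with the smallest adjusted p and up to 2 called against the majority; for markers the 4 most abundant; the 3 on either side of the count threshold; and Rai1. Others are said to be chosen after their values were seen, or mark a list's range, or show members that were not called; some genes the rule selects are not reported here. Members and lists were chosen with earlier results of these data known. Alternatives were other thresholds, adjustments, count minimums, centring and FPKM ratios.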

Additional observations from a re-analysis of the deposited data

Results flagged for a closer look

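The response to TTX differed between the control and Rai1 shRNA arms, by the Wald test of the difference with adjusted p under 0.05, for 23 of the 177 genes followed by name, against 188 of all 12333 members (1.52%). Many of the named genes were picked for strong calls in the control arm. Differences are given as the log2 change in the Rai1 shRNA arm minus that in the control shRNA arm. Among glial genes they were 1.86 for Pdgfra, 1.16 for Cspg4, 1.10 for Olig2, 0.76 for Olig1, 0.91 for Slco1c1, 0.65 for Acsbg1 and 0.40 for Glul, and for the mitotic kinesin Kif23 the difference was 1.05. Among activity-regulated genes they were 1.5 for Ptgs2, 0.85 for Scg2, 0.81 for Penk, 0.64 for Rnd3, 0.59 for Rgs2 and 0.51 for Homer1. Below 0 stood Rhpn1 (-1.02), the clock genes Cry1 (-0.87), Per2 (-0.84) and Hlf (-0.53), the receptor genes Grm4 (-0.55), Grik4 (-0.43) and Gabbr2 (-0.38), and Rbfox3 (-0.40) and Shank2 (-0.39). The cause was not tested.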

How the results depend on the processing

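The count of 3953 called members (1706 higher, 2247 lower) stayed within 1.5 times under 8 of 9 alternatives, from 2907 at an adjusted p under 0.01 to 4682 at 0.1. Asking also for a change of at least 0.5 left 1815 members, 728 higher and 1087 lower, by its own construction. Centring on the median of all members changed no call and no direction among the 174 named members with a centred value and kept all 27 list medians within their SE. The ratio of pooled FPKM (pseudocount 0.5, then 0.1) reversed the call of 1 tracked gene, at -0.16 with either, and lay nearer 0 than the deposited change by more than 1 SE for 110 of 177 named genes with pseudocount 0.5. List medians moved by more than the median SE to -1.06 (0.5 only) for secreted signals, -0.80 and -0.82 for synaptic effectors, -0.52 and -0.53 for feedback inhibitors, 0.21 and 0.21 for calcium and HCN channels, -0.047 and -0.048 for neuron markers, -0.57 and -0.61 for microglia markers, 0.23 and 0.24 for clock genes, -0.30 and -0.30 for heat shock genes, 0.012 and 0.014 for cell cycle genes, and -0.10 and -0.10 for respiratory genes; the cause was not tested. No paired analysis was possible because the tables hold no values per library, and for the same reason no library could be left out. The vehicle group has 2 libraries, and an unusual one would bear on every value here.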

Other observations

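Histone genes of the Hist clusters, a set chosen after its values were seen, stood higher under TTX. Of 35 members, 20 passed the deposited test as higher and 0 as lower, against 13.8% of all members called higher, all 35 values were above 0, and the median log2 change was 0.47. Hist3h2a was highest (1.32 ± 0.16, 133 to 327 pooled FPKM), followed by Hist1h4n (1.00 ± 0.14, 288 to 560 FPKM) and Hist1h4d (0.86 ± 0.14). These genes encode core and linker histones, and the cause was not tested. In the Rai1 shRNA arm 33 of the 35 were called higher, with a median of 1.07.

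Some genes gave unlike sizes in the deposited tables. Myo1e had a log2 change of -1.27 ± 0.11 but pooled levels of 12.6 and 12.3 FPKM, and Adamts2 a change of 1.6 ± 0.15 with 8.30 and 10.7 FPKM.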
